A study of Homo sapiens with 9 samples.

Results

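The genes described here are GAS5 and 7 other long noncoding host genes of small nucleolar RNAs (snoRNAs): ZFAS1, SNHG1, SNHG5, SNHG6, SNHG8, SNHG12 and SNHG15. They were taken by gene name from the deposited tables, and all 8 were found among 61552 listed genes and passed the filter on low values, which left 16571 genes for testing. Expression was measured by RNA sequencing in MDA-MB-231, an established human triple-negative breast cancer cell line labelled wild type, without any transgene or deletion. All cells grew in serum-containing DMEM, and 3 libraries each came from control cells (0 mM, phosphate-buffered saline), cells given 10 mM 2-deoxy-D-glucose (2-DG) and cells given 20 mM 2-DG, all for 24 h. 2-DG is a glucose analogue that enters cells like glucose and blocks glycolysis. The comparisons ask how these transcripts respond to 2-DG, and glycolysis itself was not measured in these libraries. Nothing in the labels states that the libraries of a group came from separate cultures, so p-values measure the spread between these libraries, which may be technical.

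A snoRNA host gene carries snoRNAs in its introns, and the snoRNAs are released when the introns are spliced out and guide chemical modification of ribosomal and other RNAs. The spliced remainder of many noncoding hosts is exported, bound by ribosomes over short reading frames and destroyed by nonsense-mediated decay (NMD), so it builds up when translation slows. Many hosts, like ribosomal protein genes, start transcription in a run of pyrimidines, the 5' terminal oligopyrimidine (TOP) motif, through which the TOR kinase controls translation. GAS5, short for growth arrest-specific 5, was found as a transcript that accumulates in arrested cells.

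The 5' ends of the members are shown because this pyrimidine run is the sequence feature the class is known for. The letters below are the first bases of the GENCODE 29 transcript model (GRCh38) with the longest leading pyrimidine run of each gene printed, so they were picked for that feature, and capitals mark the run. No sequence is printed for SNHG6. For ZFAS1, whose longest run belonged to a model that starts inside the gene, the window runs from 30 bases before to 30 bases after the RefSeq start at chr20:49278612-49278671 on the plus strand. The other models start on chromosome 1 at 173867989 (GAS5, minus strand), 11 at 62855881 (SNHG1, minus), 6 at 85678733 (SNHG5, minus), 4 at 118278758 (SNHG8, plus), 1 at 28581873 (SNHG12, minus) and 7 at 44986834 (SNHG15, minus). Each of these models also starts downstream of the outermost annotated start of its gene, those of GAS5 and SNHG12 furthest from it.
GAS5: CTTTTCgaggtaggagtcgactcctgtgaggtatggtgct
ZFAS1: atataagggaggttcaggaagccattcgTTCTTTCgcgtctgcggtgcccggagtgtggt
SNHG1: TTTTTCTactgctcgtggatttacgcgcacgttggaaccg
SNHG5: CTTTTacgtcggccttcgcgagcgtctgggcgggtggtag
SNHG8: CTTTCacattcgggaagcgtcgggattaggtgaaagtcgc
SNHG12: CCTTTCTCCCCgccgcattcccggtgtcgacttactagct
SNHG15: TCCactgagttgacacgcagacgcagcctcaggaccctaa

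SNHG15 was the member whose models lacked such a start. At least 4 pyrimidines opened 11 of 29 models of GAS5, 3 of 10 of ZFAS1, 4 of 25 of SNHG1, 4 of 23 of SNHG5, 3 of 5 of SNHG6, 1 of 5 of SNHG8, 7 of 17 of SNHG12 and 0 of 10 of SNHG15. That is 33 of 124 member models (26.6%), beside 14522 of all 206694 models (7.03%). With 7.03% of all models opening in this way, a count of 0 among the 10 models of SNHG15 is no result by itself. The feature was counted after the expression values were known, and annotated ends need not be the ends used in these cells. RefSeq windows of 300 bases around the start (GRCh38.p14) were found for 6 of the 8 members. The longest pyrimidine run beginning within 10 bases of the RefSeq start was 12 in SNHG12, 7 in ZFAS1 and SNHG1, 6 in SNHG5 and SNHG8 and 3 in GAS5, where the median over 35116 windows was 4. A run of at least 12 was found in 2.36% of all windows, and of at least 6 in 24.7%. The RefSeq start of GAS5 lies 163 bases from the GENCODE gene end, so its short run describes that window and not the model printed above. None of the 6 windows held TGATGNAA, an ATF4 element (3.62% of all windows), or CACGTG, an E-box (7.26%), on either strand.

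Library totals, recovered from the FPKM values (reads scaled by gene length and library total), lay between 30974968 and 40843638. The replicates of a group had Pearson correlations of log2(FPKM + 1) between 0.989 and 0.996. The labelled line was checked against its markers: in control cells the mean FPKM was 285 for VIM, 117 for AXL, 103 for CAV1, 69.8 for CD44 and 150 for KRT18. The hormone receptors ESR1 and PGR stayed at or under 0.0204 FPKM in every library, and the leukocyte markers PTPRC and CD68 at or under 0.0943. Other markers listed as low were present: the control means were 8.81 FPKM for the receptor ERBB2, 3.75 for EPCAM, 2.03 for GATA3 and 0.365 for CDH1, and of the markers of other cell types 1.72 for PECAM1, 1.2 for COL1A1 and 0.583 for ACTA2. ERBB2, GATA3, CDH1 and PECAM1 were called lower at 20 mM 2-DG, and their part in the member values was not tested. Changes below are limma log2 fold changes of log2(FPKM + 1), with all 9 libraries in one fit, and a gene was called at a Benjamini-Hochberg adjusted p under 0.05 over all 16571 genes. Because the pseudocount of 1 shrinks the change of low genes, folds of mean FPKM are also given.

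In control cells GAS5 was the most abundant member per length, at 36.0 ± 2.25 FPKM (SD, n = 3), followed by SNHG1 at 24.0 ± 0.239 and SNHG6 at 15.2 ± 1.94 (SD, n = 3). The libraries of these 3 genes did not overlap one another. SNHG15 (8.34 ± 0.667, n = 3) and SNHG8 (7.87 ± 1.21, n = 3) came next with overlapping libraries, so their order was not resolved. SNHG12 at 5.66 ± 0.624 and ZFAS1 at 3.28 ± 0.429 lay below them without overlap, and SNHG5 was near the floor at 0.157 ± 0.0234 FPKM (SD, n = 3). The gene lengths that turn the FPKM of every library into whole reads were longer than the GENCODE 29 exons for 7 of the 8 members, for example 12604 against 2806 bases for SNHG5, 8315 against 2243 for ZFAS1 and 6612 against 923 for SNHG8. Levels between genes therefore depend on the annotation the authors used, which is not given in the sources used here, and SNHG5 rested on only 39 to 84 reads per library. Ratios of the FPKM of a gene between libraries do not depend on its length. Changes of log2(FPKM + 1) do, because a longer length lowers the FPKM against the pseudocount of 1. At 20 mM the log2 fold change of SNHG5 was -0.06 on log2(FPKM + 1) and -0.51 by limma-voom. At 20 mM 2-DG the means ran from 57.3 FPKM for GAS5 through 26.6 for SNHG1, 15.1 for SNHG6 and 10.8 for SNHG8 to 6.79 for ZFAS1, 6.23 for SNHG15 and 5.96 for SNHG12, of which the last 3 overlapped, and 0.109 for SNHG5.

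**Figure D1:**
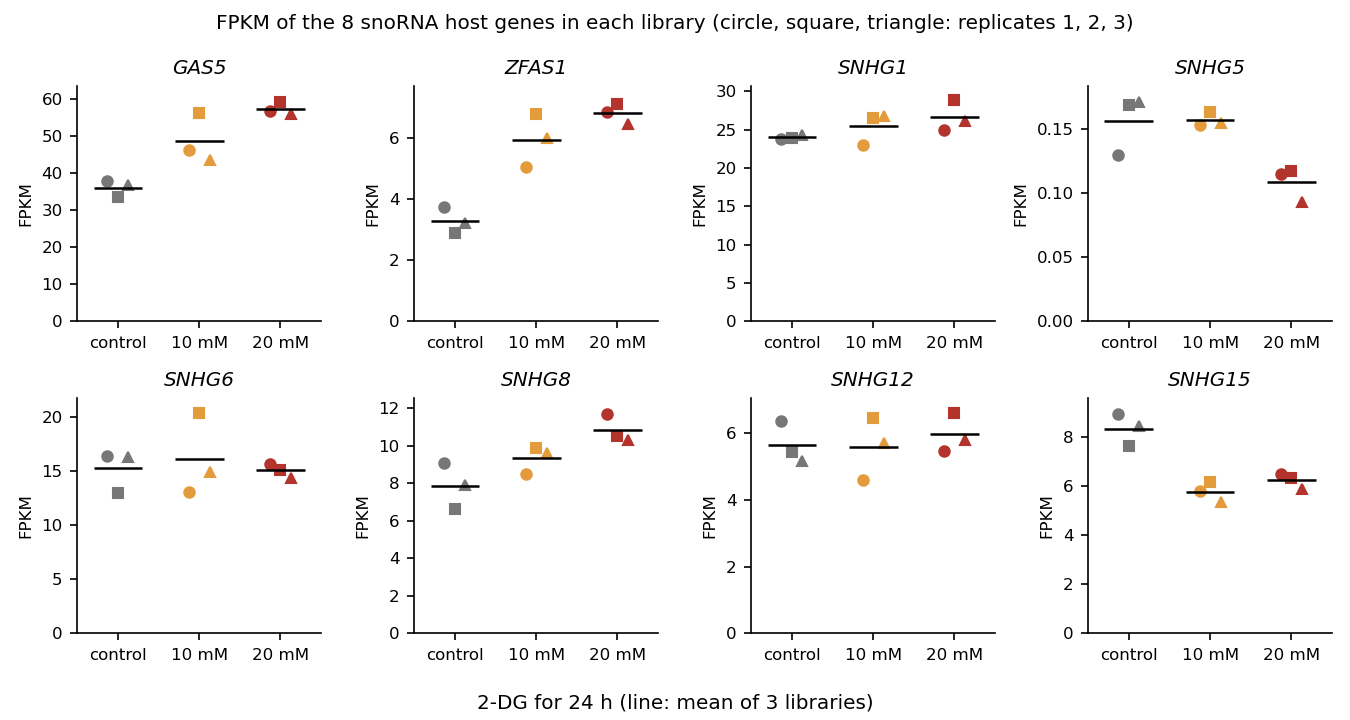
FPKM (vertical axis, from 0, a scale per gene) of the 8 host genes in the 3 libraries of each group, with circles, squares and triangles for replicates 1, 2 and 3 and a line at the group mean. The treated libraries of GAS5 and ZFAS1 sit above all control libraries at both doses and those of SNHG15 below, while SNHG6 and SNHG12 overlap throughout.

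With 10 mM 2-DG, 2 of the 8 hosts rose (GAS5 and ZFAS1), 1 fell (SNHG15) and 5 were not called. With 20 mM, 3 rose (GAS5, ZFAS1 and SNHG8), 1 fell (SNHG15) and 4 were not called. Of all genes tested, 12.1% were called higher and 17.5% lower at 10 mM, and 15.3% and 21.6% at 20 mM, so calls were common in both directions. No member passed an absolute log2 fold change of 1 with an unadjusted p under 0.05, which 0.573% of genes passed upward and 1.16% downward at 10 mM, and 0.96% and 1.96% at 20 mM. This count depends on the pseudocount: at 20 mM the log2 fold change of ZFAS1 was 0.87 on log2(FPKM + 1), 1.04 with a pseudocount of 0.1 (limma adjusted p = 0.000155) and 1.06 by limma-voom (adjusted p = 1.01e-05), so that it passed 1 with the smaller pseudocount and by limma-voom. The median log2 fold change of the 8 members was 0.07 at 10 mM and 0.10 at 20 mM, against -0.01 and -0.02 over all genes. Both doses share the 3 control libraries.

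**Figure D2:**
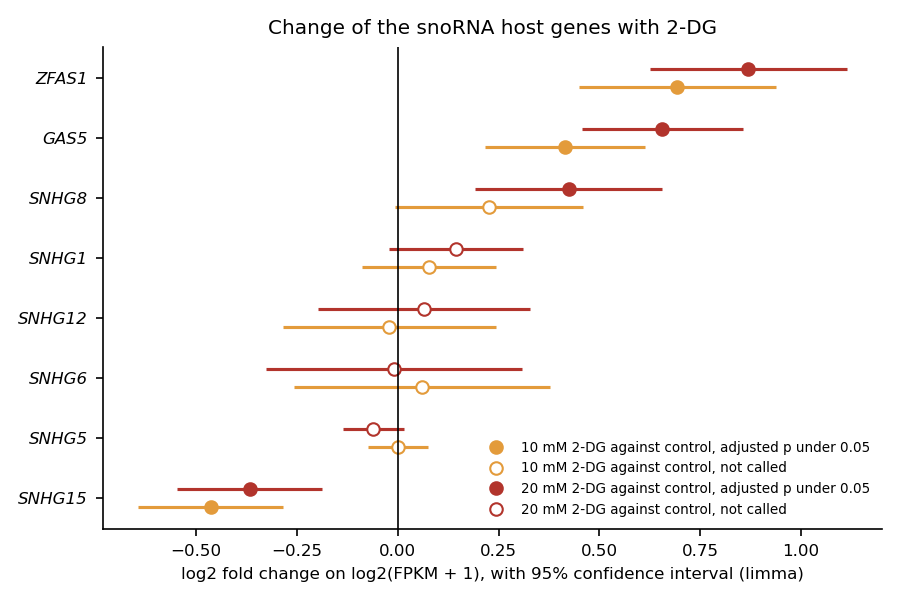
Limma log2 fold changes of log2(FPKM + 1) against control (horizontal axis) with 95% confidence intervals for the 8 host genes at 10 mM (orange) and 20 mM 2-DG (red). Filled points had an adjusted p under 0.05: ZFAS1 and GAS5 lie to the right of 0 and SNHG15 to the left at both doses, and SNHG8 was called at 20 mM.

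GAS5 (ENSG00000234741, chr1:173863900-173868882, minus strand) hosts box C/D snoRNAs, and its spliced RNA binds the glucocorticoid receptor. Its level was 37.7, 33.5 and 36.9 FPKM in control replicates 1 to 3, 46.2, 56.0 and 43.5 FPKM at 10 mM, and 56.8, 59.1 and 56.0 FPKM at 20 mM 2-DG. Every treated library lay above every control library, and at 10 mM replicate 2 stood above the other libraries of its dose. Mean FPKM was 1.35-fold the control at 10 mM (log2 fold change 0.41 ± 0.09 SE, limma adjusted p = 0.00678). It was 1.59-fold at 20 mM (0.66 ± 0.09 SE, limma adjusted p = 0.000362), a log2 fold change that, taken with its sign, lay above that of 96.9% of the genes tested. The share of GAS5 in the summed FPKM of the 8 hosts went from 35.5% to 36.0% in control libraries to between 38.9% and 43.4% at 10 mM and between 44.2% and 44.8% at 20 mM.

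ZFAS1 (ENSG00000177410, chr20:49278178-49295738, plus strand) hosts the SNORD12 snoRNAs and runs antisense from the start of ZNFX1, an RNA helicase-like gene. It was at 3.74, 2.89 and 3.20 FPKM in the control, 5.03, 6.78 and 5.98 FPKM at 10 mM and 6.83, 7.10 and 6.44 FPKM at 20 mM. Again no treated library fell within the control range, and the libraries of the doses overlapped each other. ZFAS1 had the largest fold of the 8 members at both doses, 1.81-fold in mean FPKM at 10 mM (log2 fold change 0.69 ± 0.11 SE, limma adjusted p = 0.00124) and 2.07-fold at 20 mM (0.87 ± 0.11 SE, limma adjusted p = 0.000224). At 20 mM its log2 fold change, taken with its sign, lay above that of 98.5% of the genes tested.

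SNHG8 (ENSG00000269893, chr4:118278709-118279823, plus strand) hosts SNORA24. It was at 9.07, 6.64 and 7.90 FPKM in the control, 8.50, 9.88 and 9.64 FPKM at 10 mM, and 11.7, 10.5 and 10.3 FPKM at 20 mM. The 10 mM libraries overlapped the control and the 20 mM libraries lay above both other groups. The log2 fold change was 0.23 ± 0.10 SE at 10 mM (limma adjusted p = 0.133) and 0.42 ± 0.10 SE at 20 mM (limma adjusted p = 0.0102), the latter 1.38-fold in mean FPKM. Without control replicate 1, which had the highest SNHG8 level of the control, the 10 mM change was also called (0.32, limma adjusted p = 0.0441). Without control replicate 2, which had the lowest, it was 0.12 (limma adjusted p = 0.389), so its size at 10 mM depended on single control libraries.

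SNHG15 (ENSG00000232956, chr7:44983023-44986961, minus strand), the host of SNORA9 and a short-lived transcript, was the 1 member called lower. It was at 8.95, 7.63 and 8.44 FPKM in the control, 5.80, 6.16 and 5.33 FPKM at 10 mM and 6.48, 6.34 and 5.86 FPKM at 20 mM. All treated libraries lay below all control libraries, and the doses overlapped. Mean FPKM was 0.691 of the control at 10 mM (log2 fold change -0.46 ± 0.08 SE, limma adjusted p = 0.00218) and 0.747 of it at 20 mM (-0.37 ± 0.08 SE, limma adjusted p = 0.00574). SNHG15 had no transcript model opening with 4 pyrimidines, as described above, and whether this goes with its fall was not tested. The members with such models included called ones (GAS5, ZFAS1 and SNHG8) and ones not called at either dose (SNHG1, SNHG5, SNHG6 and SNHG12).

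SNHG1 (ENSG00000255717, chr11:62851988-62855914, minus strand), which hosts a cluster of box C/D snoRNAs, was not called. It was at 23.8, 23.9 and 24.2 FPKM in the control, 22.9, 26.6 and 26.7 FPKM at 10 mM and 25.0, 28.9 and 26.1 FPKM at 20 mM. The 20 mM libraries lay just above the control range, and the 10 mM libraries spanned it. The log2 fold change was 0.08 at 10 mM (95% confidence interval -0.09 to 0.24, limma adjusted p = 0.479) and 0.14 at 20 mM (-0.02 to 0.31, limma adjusted p = 0.161), and with upper-quartile scaling the latter was called (0.24, limma adjusted p = 0.0347).

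SNHG6 and SNHG12 were also not called, and their groups overlapped. SNHG6 (ENSG00000245910, chr8:66921684-66926398), the host of SNORD87, had a median of 16.3 FPKM in the control (13.0 to 16.4), 14.9 at 10 mM (13.1 to 20.3) and 15.1 at 20 mM (14.4 to 15.7). Its 95% confidence interval at 20 mM, -0.33 to 0.31, was wide, so a change within that range could not be resolved. SNHG12 (ENSG00000197989, chr1:28578538-28583132), the host of SNORD99 and several SNORA genes, had medians of 5.42, 5.69 and 5.79 FPKM, with an interval of -0.20 to 0.33 at 20 mM.

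SNHG5 (ENSG00000203875, chr6:85660950-85678748), the host of SNORD50, was at 0.13, 0.169 and 0.171 FPKM in the control, 0.154, 0.163 and 0.155 FPKM at 10 mM and 0.115, 0.118 and 0.0936 FPKM at 20 mM. The 20 mM libraries lay below both other groups. The summed reads were 210, 219 and 143, and the fold of mean FPKM at 20 mM was 0.695. The change was not called on the log2(FPKM + 1) scale (-0.06, limma adjusted p = 0.189) or by limma-voom on the recovered reads (-0.51, adjusted p = 0.13).

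Counted by separation alone, the treated libraries lay above all control libraries for 2 members and below them for 1 at 10 mM, where 17.8% of all genes tested did so upward and 22.7% downward. At 20 mM 4 members lay above (GAS5, ZFAS1, SNHG1 and SNHG8) and 2 below (SNHG5 and SNHG15), against 23.3% and 29.9% of all genes. Between 20 mM and 10 mM, SNHG8 lay above and SNHG5 below, against 4.71% and 7.15% of all genes.

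Between the doses themselves 0 of the 8 members were called by limma, as were 0% of all genes in either direction by limma or limma-voom, although 1139 genes had an unadjusted p under 0.05. GAS5 was the 1 member among these 1139 (log2 fold change 0.24, 95% confidence interval 0.04 to 0.44, limma adjusted p = 0.616). With the threshold on size added, 0 members and 0.00603% of all genes passed upward. The intervals of ZFAS1 (-0.07 to 0.42) and SNHG8 (-0.04 to 0.43) ran across 0, and so a further rise from 10 to 20 mM was not resolved for either.

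The libraries of a group also differed from one another across the members. In 10 mM replicate 2, the library with the highest total, all 8 members lay above their 10 mM mean, against 1 and 4 in the other 10 mM libraries, and in 20 mM replicate 3 none did. Without 10 mM replicate 2, the log2 fold changes at 10 mM were 0.31 for GAS5 (limma adjusted p = 0.00719), 0.61 for ZFAS1 (limma adjusted p = 0.00335) and -0.51 for SNHG15 (limma adjusted p = 0.00266). The reads on mitochondrial genes made up 7.15% to 7.87% of the control libraries, 7.70% to 9.75% at 10 mM and 7.75% to 8.05% at 20 mM, and their part in the member values was not tested. In RNA from whole cultures, more transcript per cell and more cells that express it cannot be told apart.

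Across the 9 libraries, which fall into 3 treatment groups, log2(FPKM + 1) of GAS5 had a Pearson correlation of 0.96 with ZFAS1, 0.87 with SNHG8, 0.65 with SNHG1, 0.35 with SNHG12, 0.30 with SNHG6, -0.63 with SNHG5 and -0.65 with SNHG15. These values describe the libraries and carry the treatment differences in them. Among 6076 genes with a mean of at least 5 FPKM, 398 had a correlation with GAS5 over 0.9. The highest were PPP2R5B and ERCC1 at 0.99 and PRSS3, YKT6 and AAR2 at 0.98, over the 9 libraries. PPP2R5B, a regulatory subunit of the phosphatase PP2A, had mean levels of 14.4 FPKM in the control, 18.4 FPKM at 10 mM and 20.3 FPKM at 20 mM.

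Each of 3 members has a protein-coding gene on the opposite strand whose outermost annotated start lies within 1000 bases of its own. This allows a comparison of both genes within each library. SNHG1 starts 188 bases from SLC3A2, the heavy chain of amino acid transporters and a known ATF4 target. SLC3A2 was at 111, 109 and 103 FPKM in the control, 370, 405 and 327 FPKM at 10 mM and 470, 449 and 434 FPKM at 20 mM. Its treated libraries were far above the control (log2 fold change 1.76, limma adjusted p = 1.40e-06, and 2.06, limma adjusted p = 2.86e-07), while those of SNHG1 were not called. The mean log2 ratio of SNHG1 to SLC3A2 went from -2.17 ± 0.07 in the control to -3.85 ± 0.21 at 10 mM and -4.08 ± 0.14 at 20 mM (SD, n = 3). An exact two-sided permutation test gave p = 0.1 for each dose, the smallest that 3 against 3 libraries allow.

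The region between these starts is printed because SLC3A2 was called at both doses and SNHG1 at neither. The RefSeq window of SNHG1 runs from 250 bases before to 50 bases after its start, on the minus strand at chr11:62855836-62856135 (GRCh38.p14), with the pyrimidine run near the SNHG1 start in capitals.
SNHG1 upstream: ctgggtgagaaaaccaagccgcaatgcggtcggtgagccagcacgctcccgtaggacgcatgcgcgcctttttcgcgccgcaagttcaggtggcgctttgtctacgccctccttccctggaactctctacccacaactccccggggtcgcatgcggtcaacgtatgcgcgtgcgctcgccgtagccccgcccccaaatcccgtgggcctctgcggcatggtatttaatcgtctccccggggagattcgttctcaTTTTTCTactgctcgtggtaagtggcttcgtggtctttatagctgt

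The outermost starts of ZFAS1 and ZNFX1 lie 248 bases apart, and both genes overlap there, sharing 249 exon bases. Here the noncoding gene was the one that rose. ZNFX1 was at 14.6, 17.5 and 15.4 FPKM in the control, 21.1, 16.8 and 17.5 FPKM at 10 mM and 17.4, 17.7 and 18.0 FPKM at 20 mM. Its 20 mM libraries overlapped the control and the gene was not called (0.21, limma adjusted p = 0.12, and 0.16, limma adjusted p = 0.214). The log2 ratio of ZFAS1 to ZNFX1 was 0.63 above the control at 10 mM and 0.89 above it at 20 mM, with exact two-sided permutation p = 0.2 and 0.1. Adjusted over the 6 such tests against the control by Benjamini-Hochberg, the smallest exact p was 0.2.
ZFAS1 upstream, plus strand, chr20:49278392-49278691 (GRCh38.p14): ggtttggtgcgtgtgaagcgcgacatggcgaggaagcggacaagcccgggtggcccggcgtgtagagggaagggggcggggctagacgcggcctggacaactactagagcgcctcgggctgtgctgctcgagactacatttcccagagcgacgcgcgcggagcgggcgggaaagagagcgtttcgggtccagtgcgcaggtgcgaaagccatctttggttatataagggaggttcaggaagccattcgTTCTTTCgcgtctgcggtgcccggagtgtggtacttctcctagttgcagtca

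The outermost annotated start of GAS5 lies 800 bases from that of ZBTB37, a zinc finger gene at only 0.239 to 0.548 FPKM in the 9 libraries. On log2(FPKM + 1) ZBTB37 was not called (log2 fold change 0.17, limma adjusted p = 0.0692, and 0.08, limma adjusted p = 0.346). By limma-voom it was called higher at 10 mM (0.60, adjusted p = 0.0294) but not at 20 mM (0.33, adjusted p = 0.216). Its mean FPKM was 1.53-fold the control at 10 mM and 1.24-fold at 20 mM, with libraries that overlapped the control. The ratio of GAS5 to ZBTB37 did not separate the groups (exact permutation p = 0.5 and 0.4). Whether the counting used strand is not given in the sources used here, so reads in exons shared with an antisense gene cannot be assigned with certainty. By GENCODE 29, ZFAS1 shares 249 exon bases with ZNFX1, SNHG6 shares 365 with MCMDC2, GAS5 shares 42 with GAS5-AS1 and SNHG12 shares 8 with TRNAU1AP. The gene models used for counting had other lengths for most members, as given above, so their overlaps are not known and may be larger. MCMDC2 stayed at or under 0.0184 FPKM in every library, GAS5-AS1 at or under 0.553, and TRNAU1AP was not called at either dose.

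**Figure D3:**
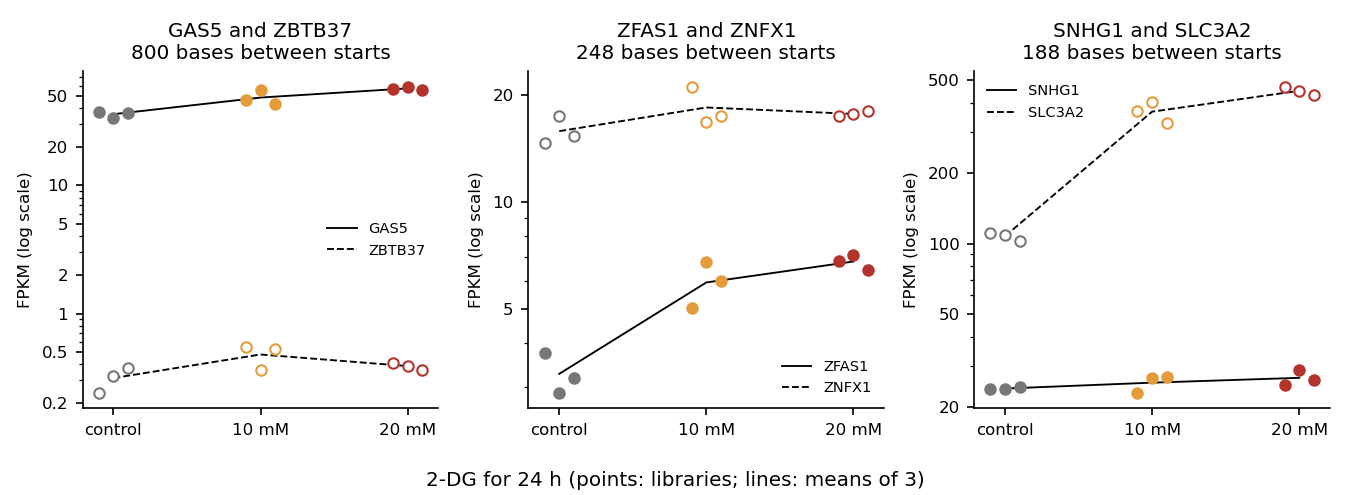
FPKM on a log axis of GAS5, ZFAS1 and SNHG1 (filled points, solid line through means of 3 libraries) and of the protein-coding gene that starts on the opposite strand nearby (open points, dashed line), by group. SLC3A2 rises from 103 to 111 FPKM in the control to 434 to 470 FPKM at 20 mM beside an SNHG1 that was not called, and ZFAS1 rises beside a ZNFX1 that was not called.

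The snoRNAs themselves could hardly be followed. GENCODE 29 places 19 snoRNA genes inside 7 of the members and none inside GAS5, 16 of them overlapping a member exon of some model, and 2 of the 19 had a value above 0 in any library. SNORD99, inside SNHG12, was listed at 19.0, 14.4 and 9.85 FPKM in the control, 4.61, 6.62 and 8.26 FPKM at 10 mM and 7.42, 6.79 and 11.9 FPKM at 20 mM. The 10 mM libraries lay below the control, and the 20 mM libraries overlapped it. SNORD12C, inside ZFAS1, was above 0 in 8 libraries, at no more than 1.58 FPKM. The libraries were made with an mRNA kit, and these values say nothing on how much mature snoRNA the cells held.

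Among 24 other noncoding snoRNA hosts, 19 were tested. At 10 mM 5 rose and 2 fell, which is 26.3% and 10.5% of them, and at 20 mM 7 rose (36.8%) and 2 fell (10.5%), beside the shares of all genes given above. Their median log2 fold change was 0.03 at 10 mM and 0.17 at 20 mM. SNHG29 rose from 29.99 FPKM in the control to 39.8 and 42.0 FPKM (0.39, limma adjusted p = 0.00351, and 0.47, limma adjusted p = 0.000847). SNHG17 (0.53 at 20 mM, limma adjusted p = 0.000312), EPB41L4A-AS1 (0.52, limma adjusted p = 0.00211), SNHG7, SNHG3, SNHG10 and SNHG16 also rose at 20 mM. SNHG26 fell at both doses (-0.32, limma adjusted p = 0.0108, and -0.35, limma adjusted p = 0.00544), and SNHG9 at 10 mM (-0.56, limma adjusted p = 0.00697) but was not called at 20 mM (-0.15, limma adjusted p = 0.355).

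Of 29 ribosomal protein genes that host snoRNAs, a class known for the TOP motif, 28 were tested. At 10 mM 2 rose (7.14%) and 0 fell, where 12.1% and 17.5% of all genes did, and at 20 mM 5 rose (17.9%) and 0 fell, where 15.3% and 21.6% of all genes did. The share that rose was thus below or near that of all genes, and the medians were 0.13 and 0.20 on the log2 scale against -0.01 and -0.02. RPL12, a large-subunit protein, changed most, from 414 to 618 and 663 FPKM (0.57, limma adjusted p = 0.00178, and 0.68, limma adjusted p = 0.00047). RPL13A, RPS13, RPL37 and RPL30 were the others called at 20 mM. Of 177 other protein-coding hosts tested, 16 rose (9.04%) and 35 fell (19.8%) at 10 mM, with a median of -0.02. At 20 mM 21 rose (11.9%) and 48 fell (27.1%), with a median of -0.05. EEF2, the elongation factor that moves the ribosome along the mRNA, rose from 639 to 840 and 933 FPKM (0.55 at 20 mM, limma adjusted p = 0.000751). The largest rise at both doses was that of RNF149, a ubiquitin ligase (0.84 and 0.83), and the largest fall that of NCAPD2, a condensin subunit (-1.29 and -1.53).

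**Figure D4:**
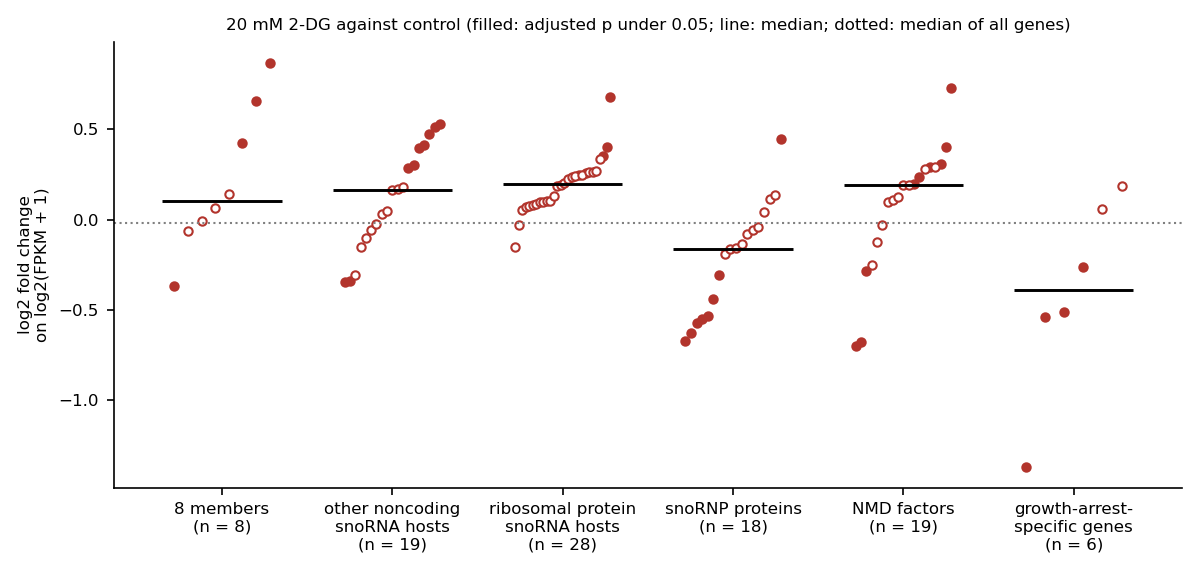
Limma log2 fold changes of log2(FPKM + 1) at 20 mM 2-DG against control (vertical axis) for the genes of 6 groups, with filled points for an adjusted p under 0.05, a line at each group's median and a dotted line at the median of all genes (-0.02). The medians of the 8 members (0.10), the other noncoding hosts (0.17) and the ribosomal protein hosts (0.20) lie above the dotted line, and that of the snoRNP proteins (-0.16) below it.

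Most of the called proteins that bind and mature snoRNAs fell. Of 18 snoRNP proteins and assembly factors, 1 rose and 9 fell at 10 mM. At 20 mM 1 rose and 7 fell (38.9%), and the medians at the doses were -0.23 and -0.16. The share of all genes that fell was 17.5% at 10 mM and 21.6% at 20 mM. The share that rose was 12.1% and 15.3%. The box C/D core protein NOP56, itself a host gene, fell from 51.8 to 36.5 and 32.2 FPKM (-0.49, limma adjusted p = 0.000529, and -0.67, limma adjusted p = 5.49e-05). Its partner NOP58, the methyltransferase FBL, the AAA ATPases RUVBL1 and RUVBL2, NOLC1 and PIH1D1 also fell at both doses. NOP10, a box H/ACA core protein, was the 1 gene of the list that rose (0.42, limma adjusted p = 0.0124, and 0.45, limma adjusted p = 0.00679).

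Of 19 NMD factors, 3 rose (15.8%) and 2 fell (10.5%) at 10 mM. At 20 mM 6 rose (31.6%) and 3 fell (15.8%), and the medians at the doses were 0.09 and 0.19. Of all genes, 12.1% rose and 17.5% fell at 10 mM, and 15.3% and 21.6% at 20 mM. DHX34, a helicase that activates UPF1, rose from 9.76 to 14.7 and 16.8 FPKM (0.55, limma adjusted p = 0.000309, and 0.73, limma adjusted p = 3.50e-05). UPF3A rose at both doses, and the exon junction proteins MAGOHB (-0.70 at 20 mM, limma adjusted p = 0.0029) and RBM8A fell. UPF1 itself, the central NMD helicase, was not called (22.4, 22.7 and 25.7 FPKM, limma adjusted p = 0.139 at 20 mM). Of 14 protein-coding genes whose mRNAs are known as NMD substrates, 6 rose and 5 fell at 10 mM and 7 rose and 6 fell at 20 mM, with medians of 0.19 and 0.27. The 7 that rose at 20 mM were the stress genes DDIT3 (1.47, limma adjusted p = 1.22e-05), ATF4, ATF3, GADD45A, UPP1 and CDKN1A, and the splicing factor RBM39. Of the 6 that fell, 5 encode splicing factors, led by HNRNPL (-0.69, limma adjusted p = 1.83e-05).

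Of 16 genes of TOR signalling and TOP mRNA control, 3 rose (18.8%) and 2 fell (12.5%) at 10 mM and 3 rose and 4 fell (25.0%) at 20 mM, with medians of -0.05 and -0.08. These shares were near those of all genes (12.1% and 17.5% at 10 mM, 15.3% and 21.6% at 20 mM). SESN2, a leucine sensor that restrains TOR complex 1, rose from 8.41 to 16.6 and 21.8 FPKM (0.91 and 1.28, limma adjusted p = 9.91e-05 and 7.32e-06), and EIF4EBP1, a TOR-regulated repressor of cap-dependent translation, from 101 to 189 and 186 FPKM (0.89 and 0.88, limma adjusted p = 0.000352 and 0.000256). LARP1, which binds TOP mRNAs (0.09 at 20 mM, limma adjusted p = 0.64), and MTOR (-0.27, limma adjusted p = 0.17) were not called.

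Of 8 other genes named for growth arrest 6 were tested, of which 0 rose and 3 fell at 10 mM and 0 rose and 4 fell at 20 mM, with medians of -0.30 and -0.39. With 15.3% of all genes called higher at 20 mM, a count of 0 among 6 is no result. GAS6, a ligand of the AXL receptor kinase, fell from 41.9 to 17.8 and 15.6 FPKM (-1.19, limma adjusted p = 8.15e-06, and -1.37, limma adjusted p = 1.87e-06). All 8 proliferation markers listed fell at both doses, with medians of -1.36 and -1.72, and cyclin A2 (CCNA2) fell from 33.4 to 10.1 and 6.90 FPKM. The part of this fall in the member values was not tested. No gene of these lists was called between 20 and 10 mM 2-DG.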

How the data were processed

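The authors sequenced total RNA from MDA-MB-231 cells (mRNA library kit, Illumina) and deposited FPKM values, 1 table per library; per the labels the build was GRCh38, and the aligner, counter, annotation release and strand setting are not given in the sources used here. The 20 mM tables carry more digits than the others, a difference that cannot be told apart from the dose. Groups were read from the sample titles. Whole reads were recovered by finding the library totals and gene lengths that make the FPKM whole multiples (32805 of 32806 genes above 0, 99.5% to 99.8% of each total). They served for the filter (at median depth, 10 or more reads in 3 or more libraries, and 15 or more over all 9) and for limma-voom. limma 3.58.1 in R 4.3.3 (lmFit, eBayes with trend) was run on log2(FPKM + 1) over 9 libraries, with Benjamini-Hochberg adjustment, and the steps were tested on simulated data. Gene models came from GENCODE 29 and windows from RefSeq (GRCh38.p14). The members, the lists and the rule for named genes were chosen with earlier results of these data known. That rule took all members, genes starting within 1000 bases of them on the opposite strand or sharing exons, and hosted snoRNAs. It also took the 5 genes most like GAS5 and the largest rise and fall of each list, plus genes needed for their role. The ratio tests of gene pairs were two-sided exact permutation tests. Pseudocount, filter, scaling, trend, samples, replicate block, test and libraries were varied.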

Additional observations from a re-analysis of the deposited data

How the results depend on the processing

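Across the alternatives (a pseudocount of 0.1, all genes above 0, at least 10 reads in every library, median-ratio or upper-quartile scaling, no trend, only the groups compared, a replicate block, limma-voom, and leaving out each of the 9 libraries), all 108 alternative counts of members called higher or lower stayed within 1.5 times the reported count. For the counts between the doses this means that 0 stayed 0. Of 432 alternative values of single members, 2 gained a call: SNHG8 at 10 mM without control replicate 1 and SNHG1 at 20 mM with upper-quartile scaling. The other 430 kept their call in the same direction or stayed uncalled. Values not called in the main fit, which include all between the doses, could change sign. SNHG6 at 10 mM did so without control replicate 2 (0.06 to -0.04). For these values the count shows only that no call was gained. Without 1 library at a time the number of members called higher at 10 mM ranged from 2 to 3, and the numbers lower at 10 mM (1), higher (3) and lower (1) at 20 mM stayed the same. GAS5 at 20 mM lay between 0.61 and 0.69. Same-numbered libraries deviated from their group means with correlations from -0.41 to 0.29 (3 of 9 over 0.1), so the numbers were not taken as pairs. Differently numbered libraries ranged from -0.23 to 0.52, the highest between control replicate 1 and 10 mM replicate 2. A block by number does not take up such likeness. With the replicate block, 4305, 5545 and 0 genes were called against 4913, 6125 and 0 without it. The members called with it were 2 higher and 1 lower at 10 mM and 3 and 1 at 20 mM. The values rest on 3 libraries a group, on an annotation and a strand setting not given, and, for SNHG5, on few reads.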
